A study of Trichoderma reesei with 8 samples.

Results

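In constant darkness, 239 of the 9143 genes in the table were transcribed in the wildtype QM6a of *Trichoderma reesei* at no less than 2 times the level of the ∆*ypr2* strain and also at no less than 2 times the level of QM6a grown in light. In light the mean level in ∆*ypr2* stayed below 1.4 times that of the wildtype. *T. reesei* is a filamentous ascomycete known for its plant cell wall degrading enzymes. YPR2 is a transcription factor whose gene lies in the SOR gene cluster, which makes yellow pigments of the sorbicillinoid type. The 239 genes were chosen from the measured levels themselves. The level of a gene in a library is given in CPM, its expected count divided by the sum of the library in Mio. With 0.5 added to the mean CPM of each group, the ratio of ∆*ypr2* to QM6a in darkness and the ratio of light to darkness in QM6a both had to be at most 0.5, the ratio of ∆*ypr2* to QM6a in light had to be under 1.4, and at least 1 group had to reach 5 CPM. There were 7639 genes with that minimum. A set of 20 genes, among them *ypr2* and other genes of the SOR cluster, was left out by name, and 13 of those had met the conditions.

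Light is an input that filamentous fungi read through photoreceptors and that alters sporulation, secondary metabolism and, in *T. reesei*, the response to cellulose. Transcription factors such as YPR2 can act under a single light condition, so that a gene can respond to the regulator in darkness and show the same level with and without it in light. Groups of fungal genes that act in the same biosynthetic route often lie side by side on a chromosome, and such groups are commonly silent in 1 condition and transcribed in another.

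The 4 groups were the wildtype QM6a in constant light of 1600 lx, ∆*ypr2* in the same light, QM6a in constant darkness and ∆*ypr2* in constant darkness, each with 2 cultures. All were liquid cultures of mycelium grown for 72 h at 28 °C and 200 rpm in minimal medium with 1% cellulose and 0.1% peptone, inoculated with conidia. The sources describe a single deletion strain and no complemented strain. In bulk mycelium, fewer cells that transcribe a gene and less RNA per cell cannot be told apart. The study reports that ∆*ypr2* formed only a small fraction of the wildtype biomass in darkness, and no significant difference in light. The part of this growth difference in the levels described here was not tested.

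Library totals ranged from 16.9 to 22.9 Mio expected counts, so that 1 count was worth between 0.0436 and 0.0592 CPM. Replicates correlated with r between 0.993 and 0.996 across genes. The *ypr2* transcript had 158 and 144 CPM in QM6a in darkness and was lower in QM6a in light, at 31.9 and 32.5 CPM. It had 0.53 and 0.262 CPM in ∆*ypr2* in darkness, and 0 in both ∆*ypr2* libraries from light. Of 7 genes annotated with asexual development, 6 were called higher and 1 lower in ∆*ypr2* in darkness. Every call given here is from the edgeR quasi-likelihood test, at a Benjamini-Hochberg adjusted p under 0.01 and at least 2-fold. Of all genes tested, 9.68% were called higher and 6.05% lower. Annotation was at hand mostly for genes with a deletion effect, so the count of calls among the 7 is largely set by that choice. The summed level of the 7 genes was 1117 to 1128 CPM in QM6a in darkness and 1713 to 1726 in ∆*ypr2* in darkness. It was 1904 to 1963 in QM6a in light and 1628 to 1689 in ∆*ypr2* in light. Most of these sums came from *ccg-1* and from *medA* (TR_123713), the 1 gene called lower. The other 5 markers summed to 32.9 to 45.2 CPM in QM6a and 187 to 235 in ∆*ypr2* in darkness, and to between 90.5 and 132 CPM in light. The conidiation genes *con-13* (TR_105808) and *con-10* (TR_5084), among the defining markers, had at most 0.104 and 0.416 CPM in QM6a in darkness and were called higher in ∆*ypr2*, with 4.4 and 4.97 CPM for *con-13* and 4.29 and 3.88 for *con-10*. None of the 7 belonged to the 239, and their part in the levels described next was not tested.

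The 239 genes together took 5.85% of the counts of QM6a in darkness, 2.11% in ∆*ypr2* in darkness, 1.44% in QM6a in light and 1.70% in ∆*ypr2* in light (means of 2 libraries). Their median level was 66.9 CPM in QM6a in darkness, 20.4 in ∆*ypr2* in darkness, 8.21 in QM6a in light and 9.34 in ∆*ypr2* in light. Thus ∆*ypr2* in darkness stood between the wildtype in darkness and both strains in light. In QM6a in darkness 8 genes reached 1000 CPM, 91 lay from 100 to under 1000, 116 from 10 to under 100, and 24 were under 10.

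**Figure D1:**
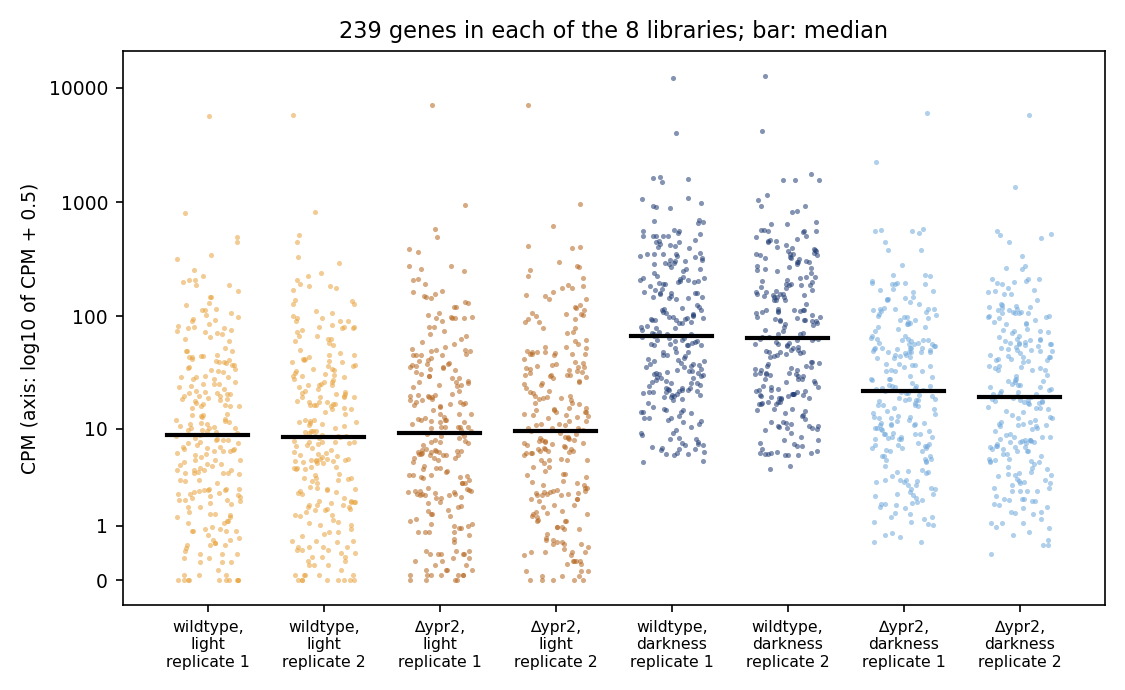
CPM of the 239 genes in each of the 8 libraries (points, 1 per gene, on an axis of the log10 of CPM + 0.5) with the median of each library (bar). The libraries of the wildtype in darkness lie highest, those of ∆*ypr2* in darkness are intermediate, and the 4 libraries from light are alike, with group medians of 8.21 and 9.34 CPM.

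The ratio of ∆*ypr2* to QM6a in darkness ran from 0.0144 to 0.499 with a median of 0.359, and 99 genes had a ratio above 0.4. The ratios of light to darkness reached lower, from 0.00152 to 0.498 with a median of 0.185 in QM6a. A ratio of at most 0.05 was seen for 43 genes with light and for 6 genes with the deletion. The median over all genes with at least 5 CPM was 1.04 for the deletion in darkness and 1.09 for light in QM6a. These values chose the genes and are a description only. In the edgeR fit over 8469 genes, 238 of the 239 were called lower in darkness in ∆*ypr2* where 6.05% of all genes were and 9.68% were called higher, and 239 were called lower in light in QM6a where 14.4% of all genes were and 9.4% were called higher, which follows from the rule. The exception was the orphan protein gene TR_105156 with 4.84 and 8.44 CPM in QM6a and 1.91 and 3.53 CPM in ∆*ypr2*.

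No gene had overlapping libraries between QM6a and ∆*ypr2* in darkness, or between QM6a in light and in darkness, and this too is largely set by the rule. Of the 7639 genes with at least 5 CPM, 37.1% were lower without overlap in the first of these comparisons and 36.6% in the second. In 187 genes every pairing of a ∆*ypr2* library with a QM6a library from darkness gave a ratio of at most 0.5, as in 4.02% of the 7639. In 228 genes every pairing of QM6a libraries from light and darkness did so, as in 11.2% of the 7639. Replicates were more than 1.5-fold apart in 19 genes for ∆*ypr2* in darkness, 11 for QM6a in darkness, 3 for QM6a in light and 1 for ∆*ypr2* in light.

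The same choice can be made with 1 library of each group and read in the other libraries, which it did not use. Each reading rests on 1 library per group. The matching shares over all genes were not counted, so the counts are a description only. With the replicate 1 libraries alone 239 genes were chosen, and in the replicate 2 libraries their median ratio of ∆*ypr2* to QM6a in darkness was 0.334 and all 239 were under 1. The median light ratio of QM6a in the replicate 2 libraries was 0.189, with 238 of 239 under 1 and TR_124318 above. For the deletion in light the median ratio in replicate 2 was 1.18, with 45 of 239 under 1 and a highest ratio of 2.48, beyond the limit of 1.4. With the replicate 2 libraries alone 239 genes were again chosen, of which 162 were in common. In the replicate 1 libraries their median ratio in darkness was 0.410 with 237 under 1, the exceptions being TR_70984 and TR_105406, and their median light ratio was 0.173 with 239 under 1. Their median ratio for the deletion in light was 1.03, with 91 under 1 and a highest ratio of 3.31. A ratio of at most 0.5 for the deletion in darkness returned for 214 of 239 genes in the first reading and for 176 of 239 in the second.

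**Figure D2:**
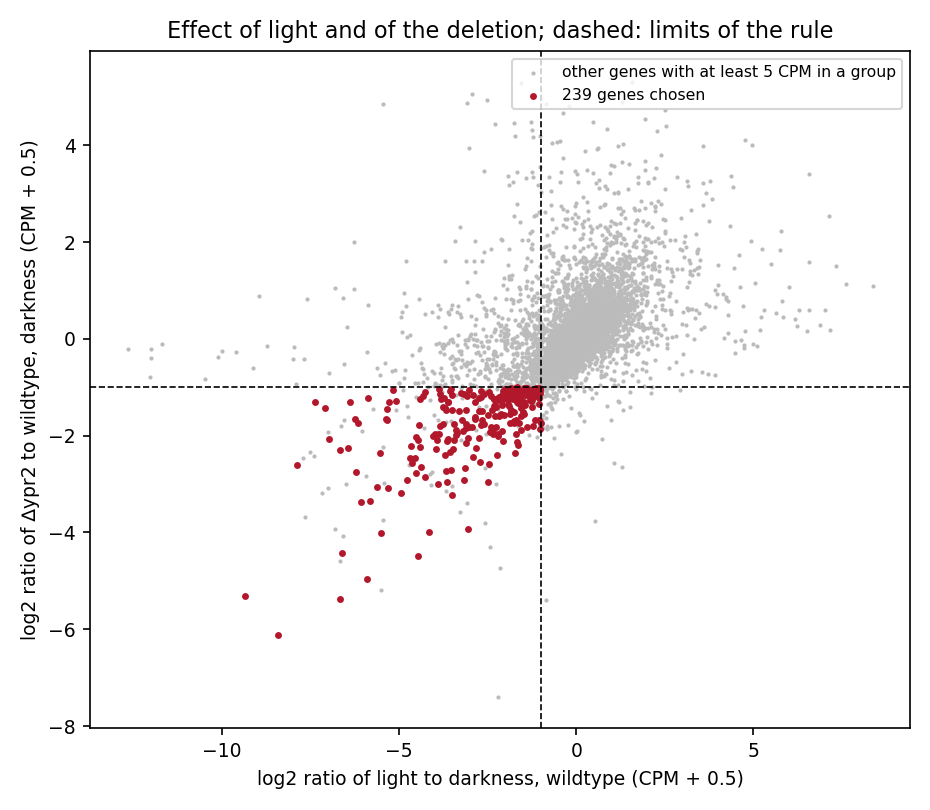
Log2 ratio of light to darkness in the wildtype (horizontal axis) against log2 ratio of ∆*ypr2* to wildtype in darkness (vertical axis), each from group means of CPM + 0.5, for genes with at least 5 CPM in a group. The 239 genes (red) fill the lower left corner set by the limits of 0.5 (dashed), and their light ratios reach down to 0.00152 while their deletion ratios end at 0.0144.

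Genes on either side of a limit differed little in value. In darkness TR_104842, encoding a transthyretin-like protein, lay just inside with a ratio of 0.499, and TR_23298 just outside with 0.503. For light in QM6a, TR_102909 was inside at 0.498 and TR_68956 outside at 0.505. The lowest peak level inside was 5.37 CPM for TR_105171, and TR_53526 with 4.96 CPM was outside. In light TR_123616 was inside with a ratio of 1.398 and TR_62488 outside with 1.404, and 65 genes failed on this limit alone.

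In light the strains were close for most of the 239 genes. The ratio of ∆*ypr2* to QM6a ran from 0.544 to 1.398 with a median of 1.11, and it was between 0.8 and 1.25 for 183 genes. It was above 1 for 72.4% of the 239 genes and for 53.9% of all genes with at least 5 CPM. The rule held this ratio under 1.4 and set no lower limit. For the 38 genes with a mean under 1 CPM in both strains in light, the 0.5 CPM added draws the ratio towards 1. In edgeR 0 of the 239 genes were called higher and 0 lower in light, where 0.378% and 0.142% of all genes were. The 0 called higher is largely set by the limit of 1.4, since a call needs 2-fold. The 0 called lower is near the share over all genes, so nothing is read from either count. DESeq2 and limma also called 0, and 67 had an unadjusted p under 0.05 in edgeR. A single gene lay under 1/1.4, namely TR_72788, encoding a glycosyltransferase of family 31. It had 7.61 and 6.4 CPM in QM6a in light, 3.68 and 3.48 in ∆*ypr2* in light, 22.9 and 23.9 in QM6a in darkness and 4.93 and 5.01 in ∆*ypr2* in darkness. The ∆*ypr2* libraries were therefore lower than those of QM6a in light as well as in darkness, without overlap. The next lowest ratios in light were 0.715 for TR_119552, 0.732 for the unknown protein gene TR_55990, 0.75 for TR_54790 and 0.782 for TR_102851, an unclassified protein gene. TR_119552 had 66.3 and 63.4 CPM in QM6a in light, 45.4 and 47.1 in ∆*ypr2* in light, 704 and 827 in QM6a in darkness and 383 and 338 in ∆*ypr2* in darkness.

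Light in the ∆*ypr2* strain is a contrast that the rule did not name, though both of its groups entered the choice. Here 103 of the 239 genes were called lower in light, or 43.1%, where 13.3% of all genes were, and 1 gene was called higher, where 3.81% of all genes were. The remaining 135 were not called, and the median light ratio in ∆*ypr2* was 0.63. Leaving out the second ∆*ypr2* library from darkness removed the call of the single higher gene. For comparison, of 619 genes that met the limit for light in QM6a but not that for the deletion in darkness, 450 were called lower in light in ∆*ypr2*. Of 72 genes that met the other conditions but not the limit of 0.5 for light in QM6a, 0 were called lower and 31 higher in light in ∆*ypr2*. Light in QM6a was called lower for 9 of these 72. Since the limits of the rule separate these sets, the counts are given side by side without a test. The interaction of strain and light was called in 201 of the 239 genes, with the higher ratio in light, where 5.94% of all genes were called in this direction and 8.37% in the other. It is built from the ratios that chose the genes, so nothing is read from it.

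The light responses in both strains are tied by the rule, since the light ratio in ∆*ypr2* equals that in QM6a times the ratio of the strains in light, divided by their ratio in darkness. The following counts are therefore a description of the chosen genes. Of the 81 genes with a light ratio of at most 0.1 in QM6a, 75 were still called lower in light in ∆*ypr2*. Of the 88 genes with a light ratio above 0.25 in QM6a, 1 was. The ratio of light to darkness was higher in ∆*ypr2* than in QM6a for 239 of 239 genes. The ratio of ∆*ypr2* to QM6a was at most 0.499 in darkness, as the rule demands, and at least 0.544 in light. The rule set no lower limit in light. In ∆*ypr2* in darkness 100 genes were still at no less than 2 times the level of QM6a in light, 139 were within 2-fold of it, and 31 were below it. Of the 103 genes called lower in light in ∆*ypr2*, 95 belonged to the 100. The dark level in ∆*ypr2* was thus near that of the wildtype in light for the larger number of genes and above it for the others.

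**Figure D3:**
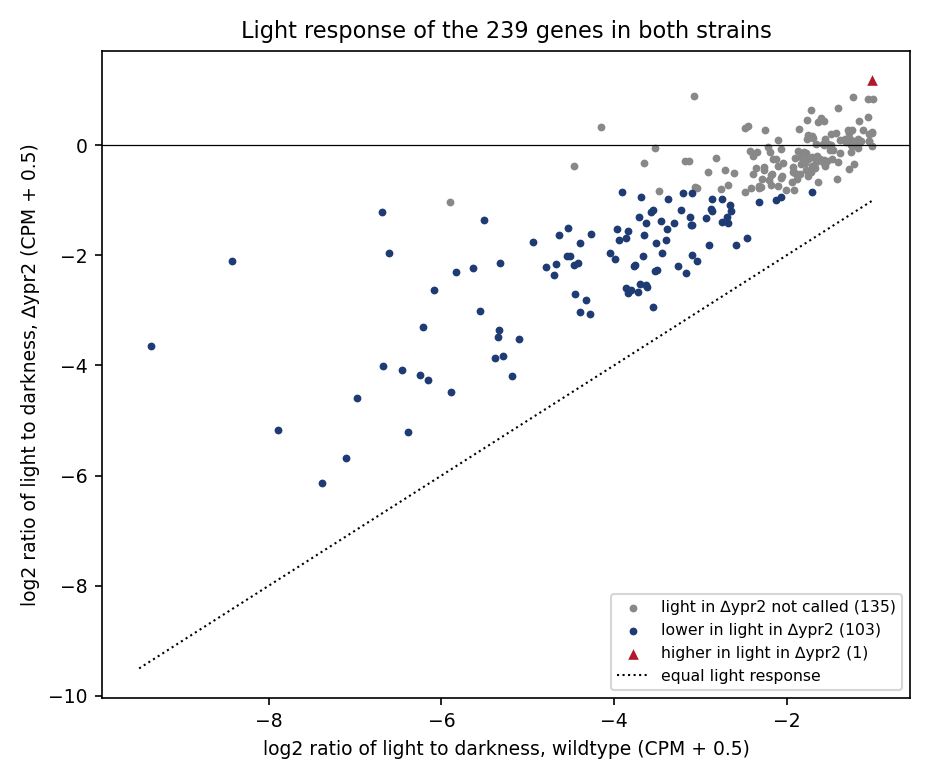
Log2 ratio of light to darkness in the wildtype (horizontal axis) against the same ratio in ∆*ypr2* (vertical axis) for the 239 genes, from group means of CPM + 0.5. Blue points are the 103 genes called lower in light in ∆*ypr2*, the triangle is the 1 called higher, grey points are the 135 not called, and all points lie above the dotted line of equal response.

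TR_69727, which has no annotation in the sources used here, was the gene called higher in light in ∆*ypr2*. It had 82.7 and 84.5 CPM in QM6a in darkness, 24.5 and 21 in ∆*ypr2* in darkness, 42.4 and 39.7 in QM6a in light and 50.8 and 53.4 in ∆*ypr2* in light. The ∆*ypr2* libraries from darkness were the lowest of all 8, below both strains in light. The log2 fold change of light in ∆*ypr2* was 1.12 ± 0.08 (± standard error, edgeR, adjusted p = 3.1e-06), higher in 2 of 2 libraries.

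The most abundant gene was *hex1* (TR_123056), which encodes the major protein of Woronin bodies, the peroxisome-derived organelles that plug septal pores of wounded hyphae in filamentous ascomycetes. It had 12143 and 12642 CPM in QM6a in darkness, 5958 and 5786 in ∆*ypr2* in darkness, 5670 and 5804 in QM6a in light and 7121 and 7074 in ∆*ypr2* in light. The wildtype in darkness was highest, ∆*ypr2* in darkness was near the level of QM6a in light and below ∆*ypr2* in light, and *hex1* alone made up 21.2% of the CPM of the 239 genes there. In ∆*ypr2* it was not called between light and darkness, with a log2 fold change of 0.20 ± 0.07 (edgeR, adjusted p = 0.036).

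Divided by the genomic length of the gene, introns included, *hex1* also led, with 3531 CPM per kb in QM6a in darkness. TR_120821, encoding a phytase, an enzyme that releases phosphate from phytate, followed with 2933 CPM per kb. It had 3987 and 4213 CPM in QM6a in darkness, 2258 and 1353 in ∆*ypr2* in darkness, 446 and 512 in QM6a in light and 497 and 404 in ∆*ypr2* in light. The ∆*ypr2* replicates from darkness were far apart, yet both were below QM6a in darkness and above every library from light. In ∆*ypr2* the phytase transcript fell in light by 2.08 ± 0.22 on the log2 scale (edgeR, adjusted p = 3.3e-05), lower in 2 of 2 libraries. The call for the deletion in darkness was lost without replicate 2 of ∆*ypr2* in darkness.

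Of the other abundant genes, TR_67562 showed the widest loss. The sources place it in the functional categories of heavy metal ion transport and cellular import. It had 1577 and 1558 CPM in QM6a in darkness, 99 and 107 in ∆*ypr2* in darkness, 188 and 185 in QM6a in light and 194 and 187 in ∆*ypr2* in light. In ∆*ypr2* its dark level was below its light level without overlap, with a log2 fold change of light of 0.81 ± 0.06 (edgeR, adjusted p = 2.7e-06), which is under the 2-fold limit of a call. TR_68812, which has lipid and carbohydrate transport among its categories, had the same order of groups, with 1622 and 1777 CPM in QM6a in darkness, 539 and 523 in ∆*ypr2* in darkness, 809 and 819 in QM6a in light and 941 and 962 in ∆*ypr2* in light. TR_44640, an unclassified protein, had 1642 and 1561 CPM in QM6a in darkness and between 444 and 620 CPM in the other 6 libraries. TR_119813, without annotation, had 1491 and 1556 CPM in QM6a in darkness, 558 and 520 in ∆*ypr2* in darkness and between 225 and 275 in light. Of TR_67562, TR_68812 and TR_44640, none was called for light in ∆*ypr2*.

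The genes with the largest losses in darkness differed in their level in light. TR_67597, without annotation, had 293 and 188 CPM in QM6a in darkness, 2.28 and 3.67 in ∆*ypr2* in darkness, 0.226 and 0.178 in QM6a in light and 0.288 and 0.334 in ∆*ypr2* in light. Its dark level was thus 69.4-fold lower in ∆*ypr2*, the lowest ratio of all 239 genes, and still above the light libraries. TR_61227, annotated as a cobalamin synthesis protein, had 901 and 553 CPM in QM6a in darkness, 14.4 and 19.6 in ∆*ypr2* in darkness and between 6.04 and 8.01 in the 4 libraries from light. For both genes the light response in ∆*ypr2* was called in the fit of all libraries, with log2 fold changes of -3.32 ± 0.66 and -1.34 ± 0.28 (edgeR, adjusted p = 0.0022 and 0.0029), lower in 2 of 2 libraries. The call was lost in both genes with limma and without any 1 of 3 ∆*ypr2* libraries, namely either from light or replicate 2 from darkness.

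TR_54790, an unclassified protein, and TR_81082, which has lipid metabolism and amine transport among its categories, lost nearly all of their dark transcript. TR_54790 had 28.6 and 17.6 CPM in QM6a in darkness and between 0.228 and 0.733 CPM in the other 6 libraries. TR_81082 had 35.7 and 38.5 CPM in QM6a in darkness, 1.7 and 2.01 in ∆*ypr2* in darkness and between 1.41 and 2.53 in light. In both genes the ∆*ypr2* libraries from darkness were within the range of the 4 libraries from light, and neither was called for light in ∆*ypr2*. TR_109944, without annotation, had 56.5 and 45.3 CPM in QM6a in darkness, 2.33 and 1.44 in ∆*ypr2* in darkness and at most 0.173 in any library from light. A strong light response with a milder loss was seen in TR_69692, without annotation, which had 501 and 497 CPM in QM6a in darkness, 112 and 127 in ∆*ypr2* in darkness and between 3.2 and 5.24 in light.

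Several genes were close to undetected in light. In QM6a in light 13 genes had 3 or fewer counts summed over both libraries, and 38 genes had a mean under 1 CPM in both strains in light. In 6 genes the count in QM6a in light was 0 in both libraries, and of these TR_105156 and TR_112563 were at 0 in ∆*ypr2* in light too. Taking 3 counts in the group as the floor, the dark level of TR_109243 in QM6a was at least 421-fold higher than its light level, that of TR_29642 at least 130-fold and that of TR_112563, annotated as a dioxygenase, at least 68.5-fold. TR_69650 had a single count in light against 4692 in darkness, a ratio of 4321 with a 95% interval from 775 to 170708 that covers counting error only.

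Of the 239 genes, 170 had an annotation or a functional category in the sources used here, and 41 of them had an annotation text that names an unknown, hypothetical or orphan protein, 33 of these with no functional category. Annotation was at hand mostly for genes with a deletion effect, so the shares of roles were not compared with other genes. The annotated genes named next that are neither regulators nor biosynthetic genes nor hydrophobins were partly picked after their values had been seen.

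Among the 239 were 9 genes annotated as transcription factors or DNA-binding zinc finger or Myb proteins. Of the 9, 3 were called lower in light in ∆*ypr2*, beside 43.1% of the 239 genes and 13.3% of all genes. For the 9, the ratios of ∆*ypr2* to QM6a in darkness were between 0.0985 and 0.486, and the light ratios in QM6a between 0.014 and 0.444. The lowest ratio in darkness belonged to the Zn2Cys6 regulator gene TR_121415. It had 331 and 318 CPM in QM6a in darkness, 33 and 30 in ∆*ypr2* in darkness, 6.15 and 4.26 in QM6a in light and 5.06 and 6.82 in ∆*ypr2* in light. The order of the groups was the same in every library, with ∆*ypr2* in darkness well below the wildtype and well above light (log2 fold change of light in ∆*ypr2* -2.47 ± 0.14, edgeR, adjusted p = 4.4e-07).

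TR_122448, encoding a C2H2 transcription factor, kept more of its dark transcript. It had 287 and 301 CPM in QM6a in darkness, 77.4 and 98.6 in ∆*ypr2* in darkness, 3.83 and 3.44 in QM6a in light and 3.91 and 4.34 in ∆*ypr2* in light. In ∆*ypr2* it fell in light by 4.49 ± 0.13 on the log2 scale (edgeR, adjusted p = 9.2e-09), lower in 2 of 2 libraries. TR_76590 encodes the homologue of PRO1, a Zn2Cys6 regulator required for fruiting bodies in the ascomycete *Sordaria macrospora*. It had 161 and 164 CPM in QM6a in darkness, 81.4 and 72.6 in ∆*ypr2* in darkness, 25.1 and 24.9 in QM6a in light and 26.5 and 30.4 in ∆*ypr2* in light. Its ratio in darkness of 0.476 was near the limit of the rule, and light lowered it in ∆*ypr2* by a log2 fold change of -1.51 ± 0.08 (edgeR, adjusted p = 3.3e-07).

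The C2H2 regulator gene TR_108357 was the most abundant of the 9 and had another pattern. It had 928 and 932 CPM in QM6a in darkness, 280 and 279 in ∆*ypr2* in darkness, 319 and 292 in QM6a in light and 365 and 416 in ∆*ypr2* in light. Only the wildtype in darkness was high, and ∆*ypr2* in darkness was the lowest group without overlap. The C2H2 gene TR_120224 had 509 and 477 CPM in QM6a in darkness and between 166 and 225 CPM in the other 6 libraries. The Myb gene TR_120000 and TR_67418, which carries a fungal transcription factor domain, were likewise within 1.5-fold over the other 3 groups, at means of 41 to 45.7 and 20.7 to 25.3 CPM, against 92.9 and 56.6 CPM in QM6a in darkness. The GATA-type gene TR_108649 (mean 142 CPM in QM6a in darkness, 63.1 in ∆*ypr2* in darkness and 36.7 in QM6a in light) and the Zn2Cys6 gene TR_108381 (52.2, 22.8 and 16.4 CPM in the same groups) lay between these patterns.

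**Figure D4:**
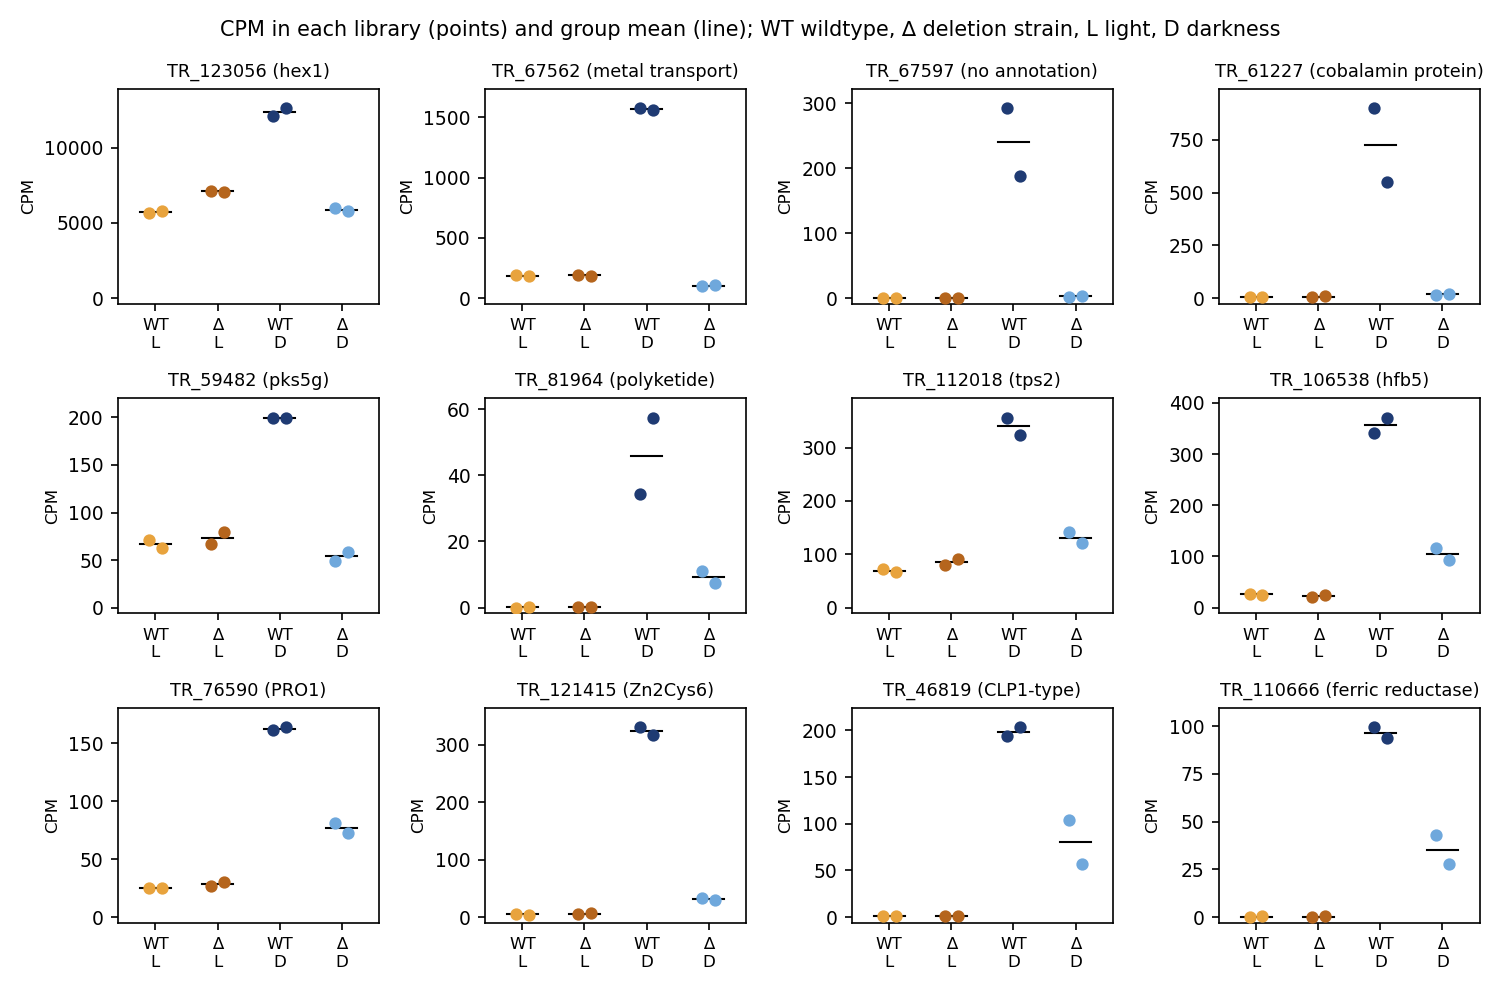
CPM in each library (points, linear axis from 0) and group mean (line) for 12 of the 239 genes, with the wildtype (WT) and ∆*ypr2* (∆) in light (L) and darkness (D). In the wildtype in darkness every gene is highest, as the rule demands. For *hex1*, TR_67562 and *pks5g* ∆*ypr2* in darkness is near or below the light level, while for PRO1, the CLP1-type transporter and the ferric reductase it stays above it.

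Categories of secondary metabolism were given for 12 genes, and a terpenoid synthase gene was annotated without such a category. Of the 12, 5 were called lower in light in ∆*ypr2*, beside 43.1% of the 239 genes and 13.3% of all genes. Polyketide metabolism was a category of TR_59482 and TR_81964. The polyketide synthase gene *pks5g* (TR_59482), of a reducing clade, had 199 and 200 CPM in QM6a in darkness, 48.8 and 58.7 in ∆*ypr2* in darkness, 70.7 and 63.1 in QM6a in light and 67.2 and 79.5 in ∆*ypr2* in light. In ∆*ypr2* its level in darkness was below all libraries from light, though not by 2-fold. TR_81964, with categories of polyketide and nonribosomal peptide metabolism, had 34.4 and 57.5 CPM in QM6a in darkness, 11 and 7.5 in ∆*ypr2* in darkness and at most 0.0953 CPM in any library from light. With 1 count in QM6a in light against 1717 in darkness, the ratio was 1581 with a 95% interval from 283 to 62492.

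The terpenoid synthase gene *tps2* (TR_112018) had 357 and 324 CPM in QM6a in darkness, 142 and 121 in ∆*ypr2* in darkness, 71.9 and 67.1 in QM6a in light and 80.3 and 90.2 in ∆*ypr2* in light. It was above the light level in ∆*ypr2* in darkness, with a log2 fold change of light of -0.70 ± 0.09 that did not reach 2-fold (edgeR, adjusted p = 0.00016). From a list of 11 polyketide and terpenoid synthase and SOR cluster genes, 10 were in the table, and TR_81694 was not analysed here. Whether TR_81694 and TR_81964, which is on the list too, are the same gene under a transposed number was not settled. Of the 10, 6 were called lower and 2 higher in ∆*ypr2* in darkness, 8 were called lower in light in QM6a, 3 were called lower in light in ∆*ypr2*, 0 were called in light for the deletion, and 3 belonged to the 239. The median log2 fold change of the list was -1.29 for the deletion in darkness and -2.36 for light in QM6a, against 0.01 and 0.00 over all genes tested. Of all genes tested, 6.05% were called lower and 9.68% higher for the deletion in darkness. For light, 14.4% were called lower in QM6a and 13.3% in ∆*ypr2*. The list was chosen with earlier results of these data known, partly by annotation at hand mostly for genes with a deletion effect. Its counts and medians are therefore a description only. Outside the 239, *pks4* (TR_82208), the polyketide synthase gene of the spore pigment, had 228 and 222 CPM in QM6a in darkness and 136 and 121 in ∆*ypr2*, a ratio of 0.571.

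On a list of 6 genes of development and hydrophobins, 5 were tested, with a median log2 fold change of -1.13 for the deletion in darkness. Of the 5, 4 were called lower and 1 higher in ∆*ypr2* in darkness, beside 6.05% and 9.68% of all genes. This list too was chosen with earlier results known and is a description only. PRO1 and the class II hydrophobin gene *hfb5* (TR_106538) belonged to the 239. Hydrophobins are small surface-active proteins that coat aerial hyphae and spores. The *hfb5* transcript had 341 and 371 CPM in QM6a in darkness, 117 and 92.3 in ∆*ypr2* in darkness, 26.6 and 24.7 in QM6a in light and 19.8 and 24.9 in ∆*ypr2* in light. The dark libraries of ∆*ypr2* were below those of QM6a and above all libraries from light, and *hfb5* fell in light in ∆*ypr2* by 2.30 ± 0.14 on the log2 scale (edgeR, adjusted p = 6.2e-07). The velvet gene *vel1* (TR_122284) moved the other way and had a ratio of 2.32 for the deletion in darkness.

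Of 4 hydrophobin and small secreted cysteine-rich protein genes, *hfb5* and TR_124277 were called lower in light in ∆*ypr2*. Among the 239 genes 43.1% were so called, and 13.3% of all genes. TR_124277 had 260 and 278 CPM in QM6a in darkness, 143 and 114 in ∆*ypr2* in darkness and between 29.2 and 35 in light. Next to it lies TR_71029, encoding a putative Ctr copper transporter, which had another pattern. TR_71029 had 164 and 155 CPM in QM6a in darkness, 48.3 and 51.2 in ∆*ypr2* in darkness and between 63.2 and 74.6 in light, so that ∆*ypr2* in darkness was the lowest group.

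Cellular transport, electron transport aside, was a category of 24 genes. Light lowered 9 of them by a call in ∆*ypr2*, beside 43.1% of the 239 genes and 13.3% of all genes. TR_46819 is annotated as an MFS hexose transporter of the CLP1 type, named after a protein of *Neurospora crassa*. It had 194 and 204 CPM in QM6a in darkness, 104 and 56.7 in ∆*ypr2* in darkness, 0.62 and 0.77 in QM6a in light and 0.633 and 0.667 in ∆*ypr2* in light. It thus lost a smaller part of its dark transcript with the deletion than with light, which took nearly all of it in either strain. The log2 fold change was -1.36 ± 0.21 for the deletion in darkness (edgeR, adjusted p = 0.00042). For light in ∆*ypr2* it was -7.01 ± 0.42 (edgeR, adjusted p = 7e-07). The call for the deletion in darkness was lost without replicate 2 of ∆*ypr2* in darkness.

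The ferric reductase gene TR_110666 resembled it. Ferric reductases turn ferric into ferrous iron at the plasma membrane. TR_110666 had 99.5 and 93.5 CPM in QM6a in darkness, 43 and 27.6 in ∆*ypr2* in darkness and at most 0.334 CPM in any library from light, and its log2 fold change of light in ∆*ypr2* was -7.43 ± 0.42 (edgeR, adjusted p = 4.3e-07). TR_74953, an MFS permease gene, had a mean of 115 CPM in QM6a in darkness, 35.5 in ∆*ypr2* in darkness and 17.9 in QM6a in light, and TR_80879, a proton/oligopeptide transporter gene, had 31.4, 6.08 and 1.54 CPM in these groups. Heavy metal ion transport was a category of 4 genes, namely TR_67562, TR_71029, TR_110666 and TR_103712, whose ratios in darkness were between 0.066 and 0.369.

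Of 8 genes for carbohydrate-active enzymes, 5 were called lower in light in ∆*ypr2*, beside 43.1% of the 239 genes and 13.3% of all genes. The ratios of the 8 in darkness were between 0.153 and 0.441. The most abundant was TR_22129, annotated as a distant relative of family 61, the lytic polysaccharide monooxygenases. It had 206 and 222 CPM in QM6a in darkness, 85.8 and 87.6 in ∆*ypr2* in darkness, 27.9 and 29.8 in QM6a in light and 35.7 and 39.3 in ∆*ypr2* in light. The groups were ordered without overlap. The chitinase-related gene *chi18-rel1* (TR_65162), of a protein family that cleaves fungal cell wall chitin, had 69.8 and 75.9 CPM in QM6a in darkness, and between 14.2 and 19.8 CPM in the other 6 libraries.

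Signalling and RNA or DNA maintenance were present with single genes. TR_76522, encoding a calcium/calmodulin-dependent protein kinase of the CAMK type, had 973 and 918 CPM in QM6a in darkness, 450 and 485 in ∆*ypr2* in darkness, 348 and 332 in QM6a in light and 391 and 394 in ∆*ypr2* in light. Its ratio in darkness of 0.495 was just inside the limit. TR_63200, encoding the KU70 subunit that binds DNA ends in non-homologous end joining, had 59.9 and 58.6 CPM in QM6a in darkness and between 19.2 and 24.1 CPM in the other 6 libraries. TR_57424, encoding the exonuclease QIP, which acts in the quelling form of RNA silencing in *N. crassa*, had 21.9 and 20.6 CPM in QM6a in darkness, 10.8 and 8.85 in ∆*ypr2* in darkness and between 5.8 and 7.39 in light.

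Of the 239 genes, 238 could be placed on 43 scaffolds of the v2.0 assembly. Allowing 1 gene in between, 55 of them lay in 24 runs of 2 or more, and 17 lay in 5 runs of 3 or more. The share in runs of 2 or more was 23.1%, against 46.4% of the 619 genes and 16.9% of the 72 genes that met the limit for light alone or for the deletion alone. The sets differ in size, and no test of these shares was made.

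The longest run was on scaffold 29, from position 27059 to 48552, with TR_69650, TR_123946, TR_81964, TR_69625 and TR_69652, interrupted by TR_111739 and TR_111742. TR_69650 carries categories of alkaloid metabolism and flavin binding, and TR_123946 one of serine metabolism. TR_69650 had 96.2 and 155 CPM in QM6a in darkness, 23 and 17.5 in ∆*ypr2* in darkness and at most 0.0953 in light. TR_69652 had 221 and 348 CPM in QM6a in darkness, 52.2 and 58 in ∆*ypr2* in darkness and between 4.38 and 7.44 in light. TR_123946 was the most abundant of the run and kept more transcript, with 1080 and 1154 CPM in QM6a in darkness, 568 and 450 in ∆*ypr2* in darkness, 187 and 183 in QM6a in light and 148 and 142 in ∆*ypr2* in light.

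All 5 genes of this run fell in light in ∆*ypr2*, with log2 fold changes between -7.96 and -1.89 (edgeR, adjusted p between 5.5e-07 and 6.8e-05), and each was lower in 2 of 2 libraries. For TR_69650, TR_81964, TR_69625 and TR_69652 replicate 2 of QM6a in darkness was higher than replicate 1, with 14.8 and 20.7 CPM in TR_69625. The genes in between were lower in the same direction without reaching the limits, with means of 17.9 and 10.6 CPM in QM6a and ∆*ypr2* in darkness for TR_111739 and 27.7 and 16.6 CPM for TR_111742.

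On scaffold 13, from 30288 to 34843, TR_79202, TR_108663 and TR_122499 were neighbours with no gene in between, and none is annotated in the sources used here. TR_108663 had 502 and 457 CPM in QM6a in darkness, 16.4 and 6.89 in ∆*ypr2* in darkness, 0.226 and 0.237 in QM6a in light and 0.403 and 0.524 in ∆*ypr2* in light, the lowest light ratio of all 239 genes. TR_79202 had 1061 and 1046 CPM in QM6a in darkness, 584 and 268 in ∆*ypr2* in darkness and between 10.4 and 12.9 in light. The neighbours thus differed in the extent of the loss, by 39.6-fold and 2.47-fold, and the call of TR_79202 in darkness was lost with only the dark libraries, without either QM6a library from darkness and without replicate 2 of ∆*ypr2* in darkness.

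The run on scaffold 6, from 484124 to 496750, held *pks5g* with TR_59368 and TR_105924, a family 1 glycosyltransferase gene. TR_59368, a protein of unknown function, had 97.1 and 97.2 CPM in QM6a in darkness, 22.4 and 19.3 in ∆*ypr2* in darkness, 32.6 and 29.1 in QM6a in light and 25 and 31.4 in ∆*ypr2* in light. As for *pks5g*, ∆*ypr2* in darkness was below every library from light. TR_105924 was the weakest of the run, with 14.1 and 14.5 CPM in QM6a in darkness and 6.25 and 5.84 in ∆*ypr2*. Next to the run but 1 gene away, TR_59151 (*ccg-13*), an orthologue of a clock-controlled gene of *N. crassa*, had means of 24.8 CPM in QM6a and 119 CPM in ∆*ypr2* in darkness, the opposite direction.

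The run on scaffold 2, from 150435 to 172323, held TR_33827, TR_103463 and TR_120008. TR_33827, an unknown protein gene, had 575 and 555 CPM in QM6a in darkness, 113 and 117 in ∆*ypr2* in darkness and between 4.91 and 7.53 in light. TR_120008, encoding a GMC oxidoreductase, a family of flavin-dependent enzymes that oxidise alcohols and sugars, had 461 and 447 CPM in QM6a in darkness, 87.5 and 85.1 in ∆*ypr2* in darkness and between 94.5 and 107 in light. The first kept a light response in ∆*ypr2* (log2 fold change -4.18 ± 0.09, edgeR, adjusted p = 2.7e-09) and the second was not called. TR_74576 lies between TR_33827 and TR_103463 and had means from 114 to 142 CPM over the 4 groups.

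The run on scaffold 18, from 65189 to 71079, held TR_123084, TR_123086 and TR_66345, with TR_109929 between them at means from 18.7 to 20.1 CPM in all 4 groups. TR_123084 has fatty acid oxidation and toxins among its categories, and TR_66345 oxidative stress response and detoxification. TR_123084 had 162 and 109 CPM in QM6a in darkness, 5.62 and 2.05 in ∆*ypr2* in darkness and between 1.53 and 2.03 in light. TR_66345 had 67.2 and 34.1 CPM in QM6a in darkness, 8.91 and 10.1 in ∆*ypr2* in darkness and between 13.4 and 16.7 in light. In all 3 genes replicate 1 of QM6a in darkness was the higher one, with 19.5 and 11.2 CPM in TR_123086, and none was called for light in ∆*ypr2*.

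**Figure D5:**
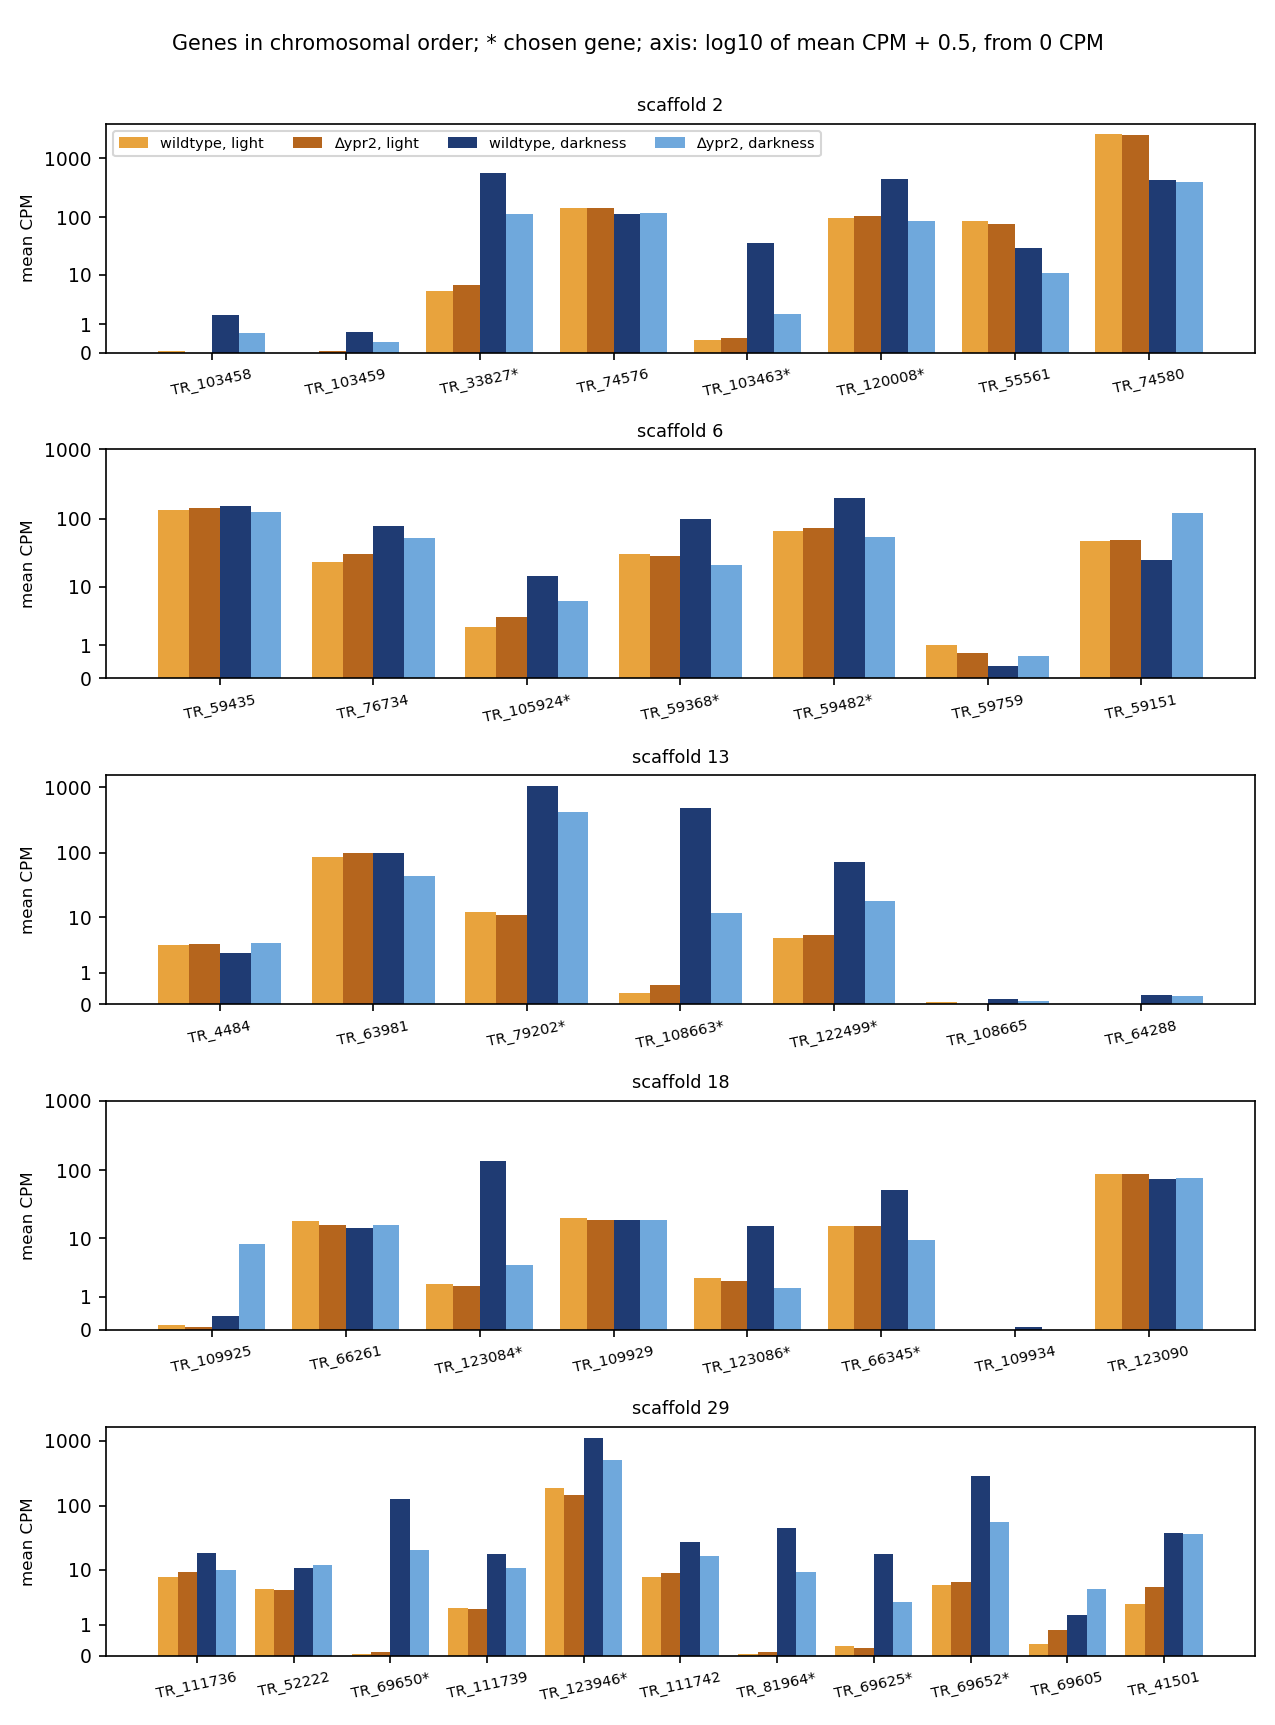
Mean CPM in the 4 groups (bars, on an axis of the log10 of CPM + 0.5 that begins at 0 CPM) for the 5 runs of at least 3 of the 239 genes (asterisks) and the genes around them, in chromosomal order. Among the asterisked genes of scaffold 29 and scaffold 13 ∆*ypr2* in darkness lies between the wildtype in darkness and both strains in light, whose bars are lowest, and on scaffold 6 ∆*ypr2* in darkness is at or below the light level for TR_59368 and TR_59482.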

How the data were processed

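RNA-seq of QM6a and ∆*ypr2* in light and darkness was analysed, 2 biological replicates per group, assigned by label. The authors aligned single reads of 50 bases with Bowtie2, used SAMtools and bedtools, and estimated transcripts with RSEM, with no versions named in the sources. The deposited table is named FPKM, and no source states another unit. The deposited values were taken to be RSEM's expected counts, made by the authors per transcript, because 70.5 to 79.8% of those above 0 in a library are whole numbers and the libraries differ in their sums (16.9 to 22.9 Mio), which are not the numbers of reads sequenced. For edgeR 4.0.16 (R 4.3.3) they were rounded, scaled by TMM and fitted over all 8 libraries with 4 group means. Genes needed 0.5 CPM in 2 libraries (8469 of 9143). Calls needed a Benjamini-Hochberg adjusted p under 0.01 and 2-fold. CPM are printed on column sums, fold changes from the TMM fit, and ratios with 0.5 CPM added. RSEM divides reads shared by similar genes, and strand use is not stated, so overlapping genes are uncertain. Positions are from RefSeq v2.0, with scaffold numbers from the gene names in the table, checked against the supplementary annotation (same for 1140 of 1140 genes). The members and lists were chosen with earlier results of these data known. Genes named by rule were members the study names, regulators, biosynthetic genes and hydrophobins, the 10 highest in QM6a in darkness, the 8, 6 and 6 lowest ratios (deletion in darkness, light in QM6a, deletion in light), runs of 3 or more, and members nearest the limits. Replicate numbers share only a number. Intervals are exact binomial and, like the floor of 3 counts, cover counting error only. Alternatives were RLE scaling, no filter, DESeq2 1.42.0, limma 3.58.1, a replicate block, fewer libraries, a p limit of 0.05 and other limits of the rule. The test was also run on simulated data whose levels and spread were taken from these libraries, with results not given here.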

Additional observations from a re-analysis of the deposited data

Results flagged for a closer look

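In edgeR the effect of the deletion was called different between light and darkness in 201 of the 239 genes, all with the higher ratio of ∆*ypr2* to wildtype in light, where 5.94% of all genes were called in this direction. The rule asked for a low ratio in darkness and placed no lower limit on the ratio in light, so this count is a description. All groups held 2 libraries, and outlying libraries within a group were not tested.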

How the results depend on the processing

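With ratios of at most 0.4 the rule gave 133 genes, all of them among the 239. The other limits gave 215 to 277 genes, the highest number with CPM scaled by TMM, which held all 239. Leaving out 1 library gave 219 to 275 genes, both ends set by ∆*ypr2* in darkness. Without 1 library 226 to 238 of the 239 were called lower in darkness in ∆*ypr2* and 238 to 239 lower in light in QM6a. For light in ∆*ypr2* 94 to 105 were called lower and 0 to 1 higher, the 0 without replicate 2 of ∆*ypr2* in darkness. A different deletion effect in light and darkness was called for 177 to 210. With the replicate number as a block 239, 239, 104 and 203 genes were called in these contrasts, lower in the first 3, and 1 was called higher for light in ∆*ypr2*. The correlation of replicate differences was between -0.0826 and 0.0477 over the pairs of groups, so the numbers do not pair the samples. Among the values of named genes, none that was called in the main or the alternative fit changed direction. Of these values 55 lost and 18 gained a call, and the direction of uncalled values was not followed. Depth limits the genes under 1 CPM in light, whose light ratios rest on few counts.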
